A study of Mus musculus with 18 samples.

Results

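The genes described here lie in a stretch of mouse chromosome 3 around Trim46, about 8 Mb long in GRCm38, whose first member, Cd1d2, starts at 86986551 and whose last, Cgn, ends at 94786492. They were chosen by position, after the stretch itself had been selected on the differences between the KO and WT labels in these libraries, so the label differences below are a description and carry no test. The table lists 313 genes wholly inside these bounds, 200 of them had fewer than 180 counts over the 18 libraries, and 6 were set aside by name (Trim46, Tpm3, Fdps, S100a8, S100a9 and Rps27), which left 107 members of the 34745 genes listed. All 107 passed the filter on low counts that left 14241 genes to test.

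RNA was sequenced in bulk from bone marrow-derived macrophages (BMDMs) of Zmat1 knockout mice on a C57BL/6 background and of their wild-type littermates. By the methods of the study such cells came from mice 4 to 8 weeks old and were grown in M-CSF at 50 ng/mL, the growth factor of the macrophage lineage, which every group received. RANKL at 100 ng/mL, the cytokine that turns these precursors into osteoclasts, was absent on day 0 and had been present for 1 or 3 days in the other groups. The 6 groups (KO or WT label, day 0, 1 or 3) held 3 libraries each of 13789775 to 17559958 counts, and no source used here says that replicates came from separate animals, so that p-values measure the spread between these libraries only. The deletion could not be checked here: Zmat1 had at least 32 counts in every library and its level in CPM did not fall in the libraries labelled KO (5.13 ± 2.18 against 4.35 ± 2.74 CPM in WT on day 0, SD, n = 3 each), so the groups are named here by their labels. CPM is a gene's count scaled to the size of its library after TMM normalization, log2 fold changes (given with their SE) come from edgeR, and "passed" means a Benjamini-Hochberg adjusted p under 0.05 in edgeR's quasi-likelihood test over all 14241 genes. Because whole cultures were sequenced, fewer cells of a type and less RNA per cell cannot be told apart.

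Libraries within a group were uneven in their cell markers. The summed level of the 8 osteoclast markers was 524 to 815 CPM in KO and 104 to 522 CPM in WT on day 0. On day 3 it was 7844 to 17021 CPM in KO and 15238 to 22414 CPM in WT, and 0 of the 8 had a fitted log2 fold change (KO minus WT) above 0. The 8 macrophage marker entries, Csf1r foremost, ran from 9514 to 13794 CPM on day 0 and from 3149 to 4425 CPM on day 3. All 7 stromal or osteoblast markers, led by Col1a1, had a fitted log2 fold change (KO minus WT) above 0 on each day, with sums on day 3 of 18975 to 28226 CPM in KO and 10640 to 13762 CPM in WT, and on day 0 of 1056 to 3587 CPM in KO against 89.5, 503 and 4500 CPM in WT. The same held for all 6 neutrophil markers (2340 to 6943 against 425 to 1873 CPM on day 0, and 55.7 to 603 against 17.9 to 33.3 CPM on day 3). The part of these differences in the results below was not tested. In 5 libraries the title carries a double hyphen, 3 of KO and 2 of WT on days 0 and 1, and what that marks is not stated.

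The stretch is known for a cluster of S100 genes, small calcium-binding proteins with roles in motility, membrane traffic and inflammation, and for the epidermal differentiation complex between them, whose cornified-envelope genes are used by skin. Alongside lie genes of macrophage receptors (Fcrls, Il6ra), a secreted scavenger protein (Cd5l), ephrin ligands, lamin A and a block of housekeeping genes for RNA processing, membrane traffic and mitochondria. In these cultures the epidermal genes were close to silent: of 47 listed, 37 had no count in any library and the most abundant, Tchh, which encodes a hair follicle protein, had 137 counts over all 18. The members therefore fell in 2 blocks, 95 genes from Cd1d2 to S100a6 and 11 from S100a11 to Cgn, with only Gm9774 between them. By FPKM, which divides by length, S100a4 was the most abundant member (342 FPKM on average), ahead of S100a11 (222 FPKM) and Cd5l (104 FPKM), the gene of a macrophage scavenger protein. In CPM, 22 members averaged over 100 and 11 under 2. Of the 107, 99 are protein coding in GENCODE, 61 are on the plus strand and 46 on the minus strand, and 49 overlap another listed gene. Whether counting used strand is not given in the sources used here, so reads of overlapping genes may not be told apart.

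Most of the stretch differed little between the labels. On all 3 days 70 of the 107 members stayed within 1.5-fold, and the median log2 fold change (KO minus WT) over the members was 0.03 on day 0, -0.02 on day 1 and 0.04 on day 3, beside 0.02, -0.02 and 0.02 over all genes tested. The sign was the same on all 3 days for 57 members, 31 higher and 26 lower in KO. By position, as the plot of label differences shows, the larger differences made up a larger share of the few members at the ends than in the middle. In windows of 1 Mb, 5 of 9 members in the first and 5 of 9 in the last differed by over 1.5-fold in the mean of the days, with median absolute log2 fold changes of 0.595 and 0.607. In the 3 windows between them with 25 to 31 members each, 4 of 30, 3 of 31 and 5 of 25 members differed by over 1.5-fold. There the median was 0.118 to 0.213. In the mean of the days 20.6% of the members and 15.7% of all genes tested differed by over 1.5-fold, with medians of 0.182 and 0.146.

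**Figure D1:**
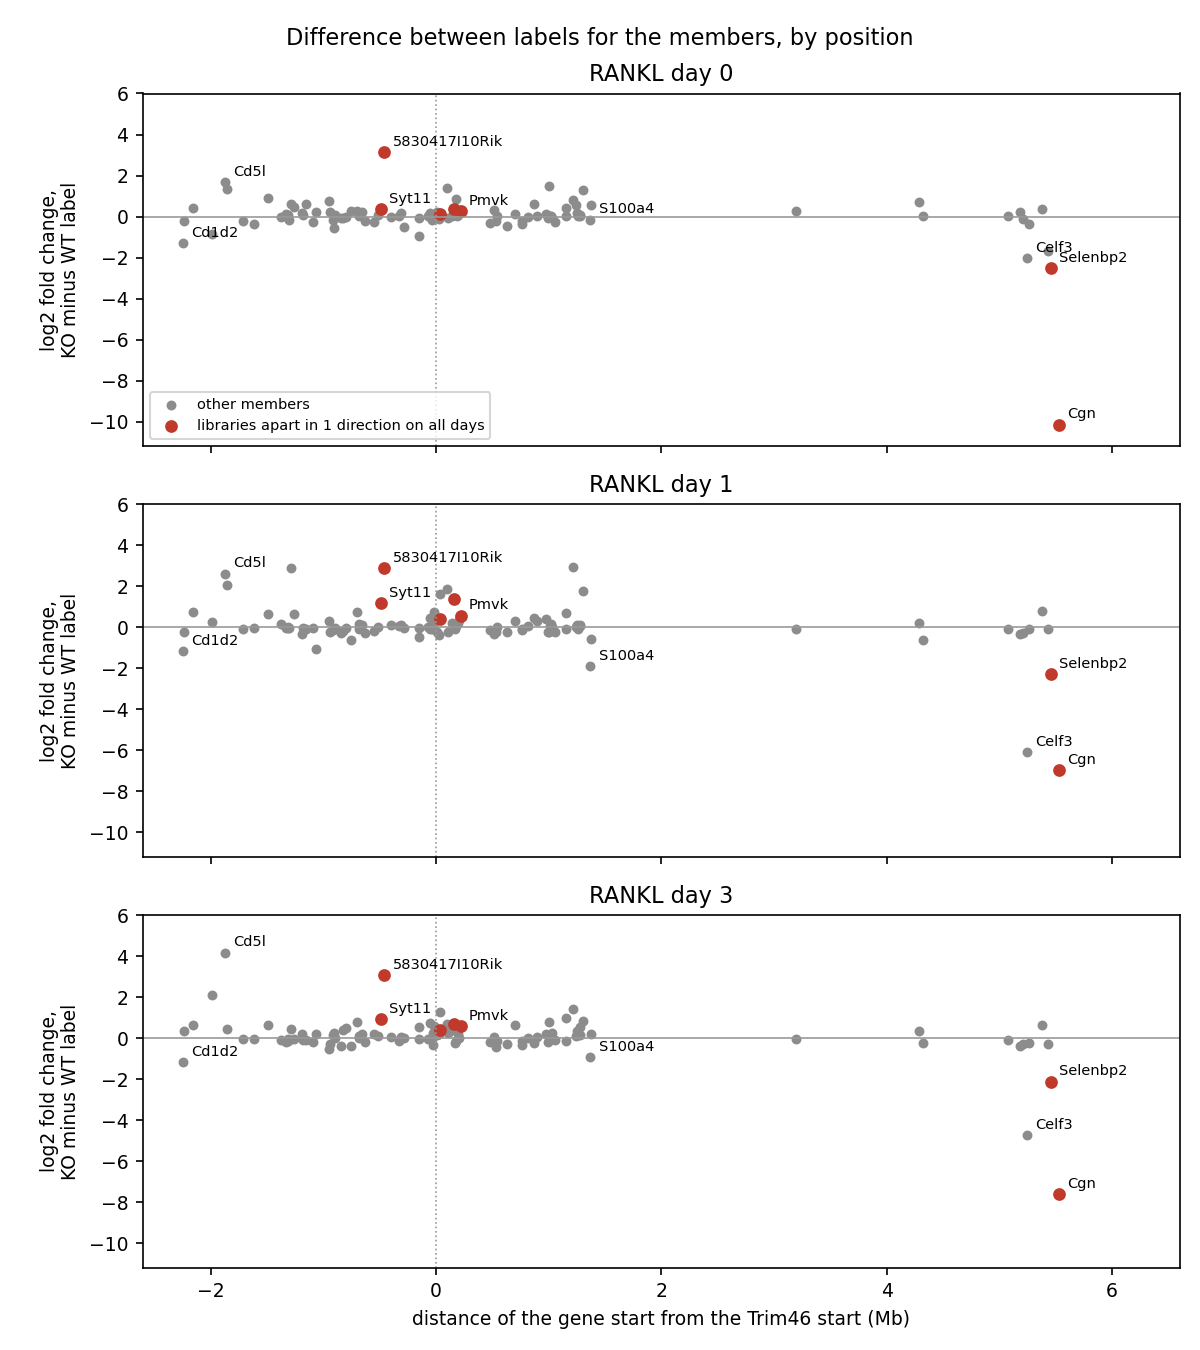
Each point is 1 of the 107 members. The horizontal axis is the distance of its start from that of Trim46 in Mb, the vertical axis its log2 fold change between the KO and WT labels, with 1 panel for each day of RANKL, and red points mark the 7 members whose 3 KO and 3 WT libraries did not overlap in 1 direction on all days. Most points of the middle lie near 0 on every day, 5830417I10Rik stands near 3 and Cgn, at the far end, lies lowest, its fitted values resting on counts at or near 0 in KO and giving no bound.

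Counts of members stood beside the background of all genes as follows. Members passing between labels numbered 2 on day 0 (background 0.119%), 3 on day 1 (background 0.112%), 2 on day 3 (background 0.14%) and 8 for the mean of the days (background 1.59%). KO and WT libraries did not overlap for 19 members on day 0 (background 10.1%), 19 on day 1 (background 12.6%) and 44 on day 3 (background 29.2%). For 7 members, 5 higher and 2 lower in KO, the labels stood apart in 1 direction on all 3 days (background 0.716%). Since label differences served to select the stretch, nothing is read from these counts. The counts moved with single libraries, and so did the background. Leaving out WT day 0 library 3, the day 0 WT library with the highest stromal sum, gave 21 members in place of 8 for the mean of the days (background 10.5%). On day 0 it gave 4 in place of 2 (background 1.35%). Without the WT day 1 library 1 whose title has the double hyphen, 7 members passed on day 1 in place of 3 (background 0.899%) and 12 in place of 8 for the mean of the days (background 4.82%). Without KO day 3 library 1 the day 3 count was 1 (background 0.062%), since Cgn no longer passed.

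Averaged over the days, the largest difference above 0 was that of 5830417I10Rik (ENSMUSG00000078684, chr3:88775216-88825587, plus strand), which GENCODE classes as an unprocessed pseudogene and which overlaps the listed gene 1500004A13Rik. Its libraries labelled KO gave 29.2, 27.5 and 23.4 CPM on day 0, 28.3, 30.4 and 37.7 CPM on day 1 and 28.4, 27.1 and 30.2 CPM on day 3. Those labelled WT gave 2.47, 3.64 and 2.86 CPM on day 0, 5.53, 3.83 and 3.79 CPM on day 1 and 4.18, 3.41 and 2.64 CPM on day 3. No KO library came near a WT library on any day, and the level hardly moved with RANKL in either label. The log2 fold changes between labels came to 3.15 ± 0.216, 2.87 ± 0.21 and 3.06 ± 0.212 in order of day, while those of RANKL from day 0 to day 3 were 0.19 ± 0.211 in WT (adjusted p = 0.465) and 0.1 ± 0.192 in KO (adjusted p = 0.698).

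Next to it and read from the other strand lies Syt11 (chr3:88744700-88775164), the gene of synaptotagmin 11, a membrane traffic protein that restrains cytokine release and phagocytosis in myeloid cells. It measured 7.49, 8.23 and 7.06 CPM in KO against 6.76, 5.73 and 5.15 CPM in WT on day 0. On day 1 the levels were 14.9, 14.5 and 16.1 CPM in KO and 4.51, 9.67 and 6.06 CPM in WT, the highest WT value being that of the double-hyphen library. By day 3 they were 7.56, 6.48 and 9.18 CPM against 4.75, 4.65 and 2.86 CPM. The gap was thus narrow on day 0 (log2 fold change 0.37 ± 0.261) and wider on day 1 (1.17 ± 0.26) and day 3 (0.92 ± 0.262), with no overlap on any day. Gon4l, the next member along, a transcription cofactor gene, differed by -0.03, 0.11 and 0.05 on the 3 days, so that no such difference was seen in that gene.

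A second group of differences of the same sign lay 34 to 220 kb past the start of Trim46. Pmvk encodes phosphomevalonate kinase of the mevalonate pathway, and its KO libraries gave 24.0, 29.5 and 26.1 CPM on day 0 and 45.6, 40.6 and 52.0 CPM on day 3, against 23.8, 20 and 21.7 CPM and 32.1, 26.5 and 32.8 CPM in WT. The day 0 groups were apart only by the gap from 23.8 to 24.0 CPM, the day 3 groups by a wider one, and Pmvk differed by 0.28 ± 0.15, 0.57 ± 0.149 and 0.6 ± 0.148 on the log2 scale in order of day. For Slc50a1, a sugar transporter gene, the day 0 levels were 29.5, 27.8 and 26.6 CPM in KO and 26.1, 24.7 and 26.4 CPM in WT, which is again a gap of a fraction of 1 CPM. On day 3 Slc50a1 stood at 23.7, 23.9 and 24.6 CPM in KO and 17.7, 21.5 and 16.4 CPM in WT, and its log2 fold changes were 0.12 ± 0.137, 0.42 ± 0.137 and 0.38 ± 0.137 in order of day. Gm15417 is annotated as antisense to Zbtb7b, the gene of a zinc-finger repressor, and its levels were low, 1.46 to 3.08 CPM over the 9 KO libraries and 0.541 to 2.24 CPM over the 9 WT libraries. Within each day its labels did not overlap, and Gm15417 differed by 0.35, 1.38 and 0.71 on the log2 scale in order of day. Zbtb7b itself differed by 0.04, 0.22 and 0.38 on the log2 scale, and without known strand the pair cannot be told apart. Members between these genes overlapped on at least 1 day. Efna1 and Efna4, ephrin ligand genes, were apart on days 1 and 3, and higher in KO. Adam15, Zbtb7b, Pygo2 and Shc1, an adaptor gene of growth factor signalling, were apart and higher in KO on day 3. Flad1 and Pbxip1 overlapped on every day.

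**Figure D2:**
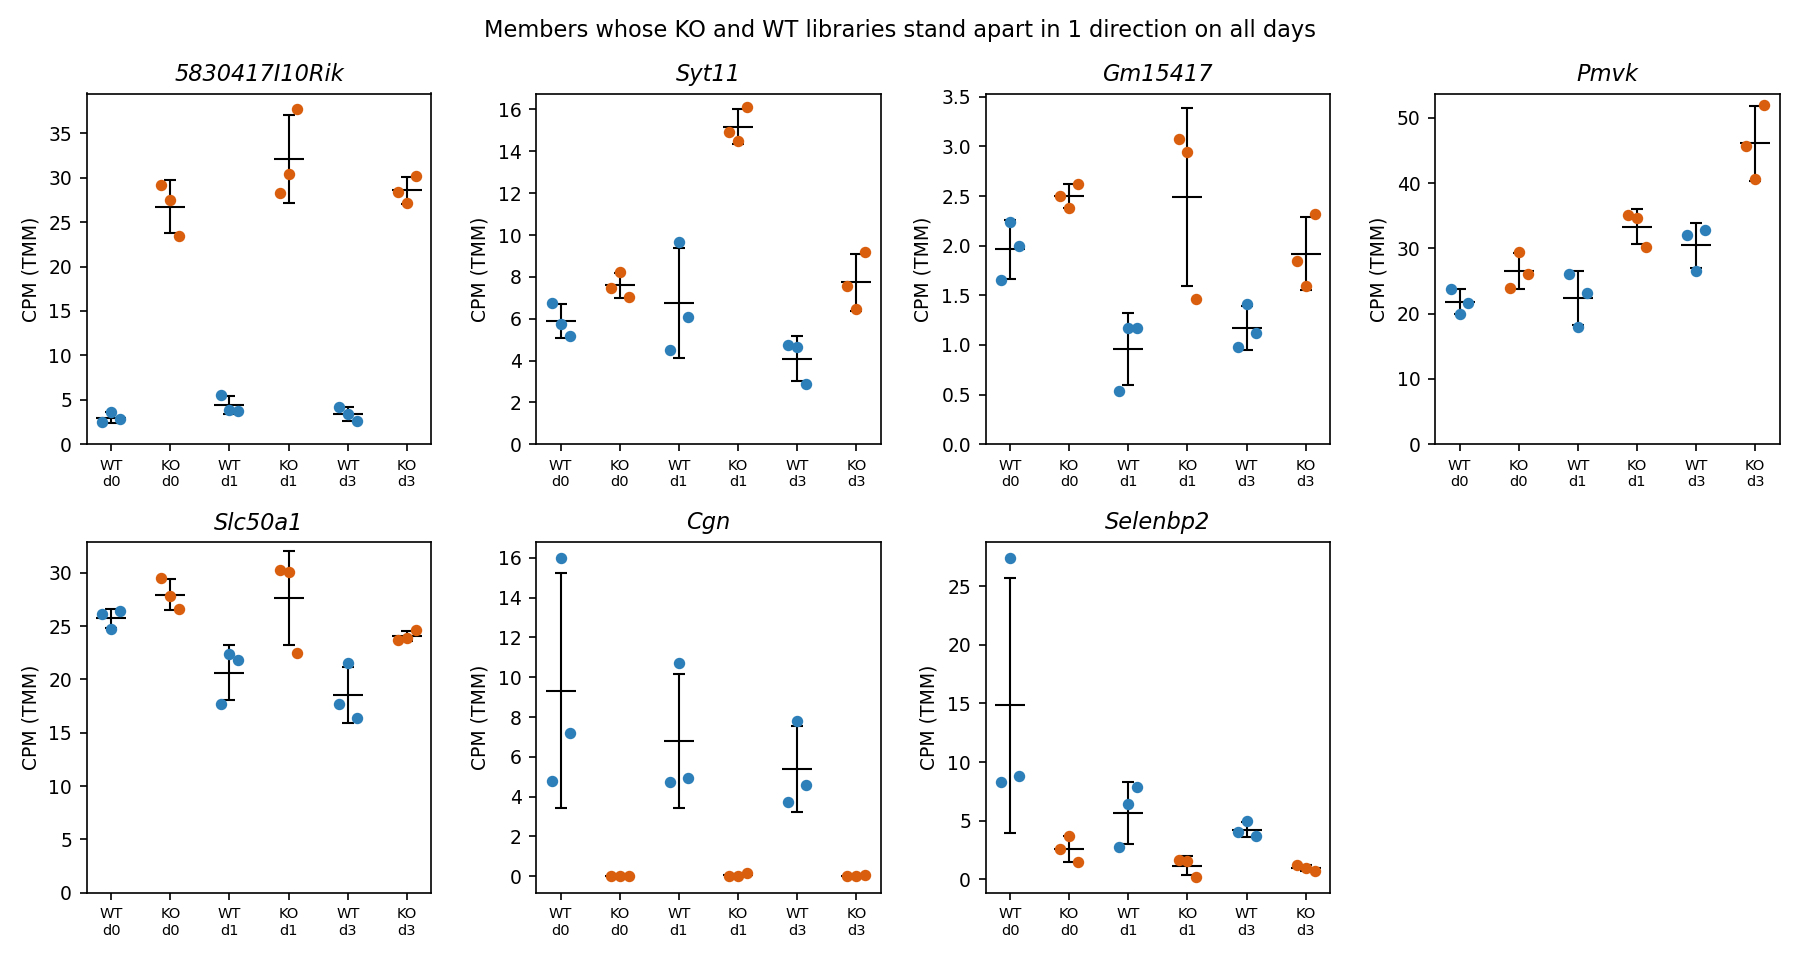
Points are single libraries in CPM on a linear axis for the 7 members whose libraries did not overlap in 1 direction on all 3 days, WT in blue and KO in orange, with bars at the mean ± SD (n = 3). Among the 5 that were higher in KO, 5830417I10Rik shows the widest gap, and Gm15417, Pmvk and Slc50a1 show narrow gaps on day 0. Cgn lies at or near 0 in all KO libraries.

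At the far end of the stretch the last 2 members before its edge, Selenbp2 and Cgn, were both lower in the libraries labelled KO and are 56 kb apart. Cgn (ENSMUSG00000068876, chr3:94760069-94786492, minus strand) encodes cingulin, a scaffold of epithelial tight junctions. Its KO libraries held no count on day 0, 0, 0 and 2 counts on day 1 and 0, 0 and 1 count on day 3. The WT libraries held 58, 207 and 101 counts on day 0, 79, 129 and 72 on day 1 and 72, 133 and 82 on day 3, or 3.72 to 16 CPM. No KO library came within reach of a WT library. Against a floor of 3 counts in each KO library, WT was at least 42.3-fold higher on day 0, and where a few counts were seen the ratio of WT to KO was 143 (95% exact interval 39.1 to 1183, counting error only) on day 1 and 269 (47.9 to 10658) on day 3. RANKL did not move it past the threshold in WT (log2 fold change -0.8 ± 0.573 from day 0 to day 3, adjusted p = 0.258).

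Selenbp2 (chr3:94693556-94704413, plus strand), one of a pair of near-identical genes of selenium-binding proteins, gave 2.57, 3.69 and 1.46 CPM in KO and 8.33, 27.4 and 8.8 CPM in WT on day 0. On day 1 its levels were 1.67, 1.58 and 0.209 CPM in KO and 2.71, 6.42 and 7.86 CPM in WT, and on day 3 they were 1.19, 0.979 and 0.736 CPM against 4.03, 5.0 and 3.7 CPM. All KO libraries of a day were below all WT libraries of that day, with log2 fold changes of -2.53 ± 0.621, -2.28 ± 0.638 and -2.12 ± 0.637. The copy Selenbp1, which lies just outside the stretch, differed by -0.34, -0.15 and 0.18 and held most of the pair's counts. Summed over both copies, an alternative chosen after seeing the data, the libraries of the 2 labels overlapped on every day, with sums of 48.9 ± 6.73 and 73.5 ± 27.0 CPM on day 0 and 22.4 ± 6.11 and 23.3 ± 1.62 CPM on day 3 (KO and WT, SD, n = 3). Selenbp2 made up 5.26% of that sum in KO and 20.2% in WT on day 0, and 4.32% and 18.2% on day 3. How reads shared by the copies were divided is not given in the sources used here, and the value for Selenbp2 alone is uncertain for that reason.

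Because this neighbouring pair moved together between the labels, the 250 bases before each RefSeq start are printed here (GRCm38.p6), Cgn at chr3:94786483-94786732 on the minus strand and Selenbp2 at chr3:94693323-94693572 on the plus strand, 5′ to 3′, with capitals for the motifs searched on both strands. The RefSeq starts differ from those of the table, so that the last 10 bases of the Cgn window and the last 17 of the Selenbp2 window lie inside the genes as the table places them. These were the GC box GGGCGG, the TATA box TATAAA, the CCAAT box and the AP-1 site TGANTCA, and none of the matches shown overlap one another.
Cgn: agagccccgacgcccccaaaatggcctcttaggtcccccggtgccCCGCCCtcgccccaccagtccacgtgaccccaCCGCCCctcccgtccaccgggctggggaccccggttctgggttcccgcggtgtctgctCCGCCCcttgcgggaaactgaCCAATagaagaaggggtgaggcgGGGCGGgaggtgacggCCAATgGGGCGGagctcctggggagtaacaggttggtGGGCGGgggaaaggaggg
Selenbp2: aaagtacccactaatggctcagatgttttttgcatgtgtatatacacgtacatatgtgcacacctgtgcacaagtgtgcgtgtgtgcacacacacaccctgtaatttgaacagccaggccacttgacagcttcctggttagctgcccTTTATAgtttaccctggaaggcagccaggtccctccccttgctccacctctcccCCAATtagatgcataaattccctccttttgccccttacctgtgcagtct
The 2 windows had little in common. That of Cgn held 6 GC boxes, 2 CCAAT boxes and 19 CpG dinucleotides and no TATA box, that of Selenbp2 held 1 TATA box, 1 CCAAT box and 2 CpG dinucleotides and no GC box. Of 32851 promoter windows of this length, 32.7% held a GC box, 12.4% the TATA box, 33.8% a CCAAT box and 6.75% the AP-1 site, and the median window had 6 CpG dinucleotides. The letters of the AP-1 site are in neither window. RefSeq windows were matched by symbol for 82 of the 107 members.

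Celf3 (chr3:94478295-94492198), the gene of an RNA-binding splicing regulator of the nervous system, lies in the same end block and was nearly silent at the start. It had no count in any KO library on days 0 and 1 and 1 count in all of WT on day 0, so no fold is given for day 0. On day 1 WT gave 0.662, 0 and 0.965 CPM, the 0 being the double-hyphen library. On day 3 the WT libraries reached 8.1, 5.35 and 9.03 CPM and the KO libraries 0.238, 0.245 and 0.34 CPM, with no overlap. The log2 fold change between labels on day 3 was -4.73 ± 0.838. The osteoclast markers were also lower in KO on that day, and their part was not tested. Its neighbours Mrpl9, a mitochondrial ribosomal protein gene, and Snx27, a sorting nexin gene, differed on day 3 by -0.3 and -0.26.

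The other end of the stretch held Cd1d2, Cd1d1, Fcrls, Cd5l and Fcrl1. Cd5l, which encodes the secreted scavenger protein also called AIM, gave 407, 244 and 458 CPM in KO and 72.3, 21.1 and 256 CPM in WT on day 0. On day 1 it gave 625, 474 and 570 CPM against 79.4, 166 and 25.9 CPM, and on day 3 112, 65.6 and 358 CPM against 15.9, 10.6 and 3.2 CPM. The groups overlapped on day 0, where WT library 3 was as high as a KO library, and were apart on days 1 and 3, with log2 fold changes of 1.67 ± 0.846, 2.62 ± 0.875 and 4.17 ± 0.946. Fcrl1, an Fc receptor-like gene best known from B cells, was higher in every KO library than in every WT library on days 0 and 1 (26.4 to 48.9 against 10.4 to 18.2 CPM, and 34.3 to 46.6 against 8.0 to 11.5 CPM) and overlapped on day 3 (9.18 to 23.5 against 6.76 to 14.8 CPM). The 5 B cell markers summed to 17.8 to 43.9 CPM in KO and 5.73 to 35.1 CPM in WT on day 0 and to 7.5 to 24.3 and 4.57 to 18.3 CPM on day 1. Of these 5, 4 had a fitted log2 fold change (KO minus WT) above 0 on day 0 and 1 on day 1. Their part in Fcrl1 was not tested. Fcrls, another Fc receptor-like gene of macrophages and microglia, overlapped on days 0 and 1 and was apart on day 3, at 125, 88.0 and 213 CPM in KO and 26.9, 63.1 and 9.59 CPM in WT. Cd1d2, the first member inside the edge and the second copy of the lipid-presenting molecule CD1D, was low throughout (0.998 CPM on average) with log2 fold changes of -1.28 ± 0.521, -1.15 ± 0.561 and -1.18 ± 0.532, its labels overlapping on day 1. Summed with Cd1d1 the labels overlapped on each day, at 15 ± 3.7 and 18.6 ± 7.86 CPM on day 0 for KO and WT (SD, n = 3).

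The values just inside and outside the bounds were as follows, with no test. At the start, Cd1d1 inside differed by -0.22, -0.24 and 0.34 in order of day. Dclk2, which straddles that bound, and Mab21l2 beyond it differed by -2.49, -1.42 and 0.06 and by 0.51, 1.3 and 0.85. Past the end, Pogz, a zinc-finger gene, differed by -0.3, -0.09 and -0.27, and Psmb4, a proteasome subunit gene, by 0.11, -0.2 and -0.1. Just above the count minimum were 1700113A16Rik, with 196 counts and differences of 0.24, -1.04 and 0.19, and the natriuretic peptide receptor gene Npr1, with 218 counts and differences of 0.83, 2.94 and 1.4. Just below it were the pseudogene Mif-ps3, with 179 counts and differences of 0.66, -0.36 and 0.15, and the adaptor gene She, with 162 counts and differences of 1.3, 2.8 and 2.52. Of the genes set aside, Trim46 itself gave 6.08, 5.44 and 6.46 CPM in KO and 2.63, 3.18 and 2.47 CPM in WT on day 3 and overlapped on day 0. Tpm3, a tropomyosin gene, differed by 1.7, 1.91 and 1.91.

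The response to RANKL was not used to choose the genes, except that the minimum of 180 counts took in day 3, and could otherwise be tested. Celf3, Crabp2 and Efna4 were among those that met this minimum only through their day 3 counts. For such members the tests below, and the counts of members that hold them, are no independent support of a rise. Between day 0 and day 3, 32 of the 107 members rose in WT (29.9%, background 23.7%) and 30 fell (28.0%, background 26.5%), while 45 did not pass. In KO 26 rose (24.3%, background 20.2%) and 22 fell (20.6%, background 22.3%). Of these, 42 passed in both labels, 22 higher and 20 lower in each, which is 67.7% of the WT calls and 87.5% of the KO calls, beside 71.2% and 84.2% over all genes. On the log2(FPKM + 0.1) scale, tested with limma, 45 members rose and 14 fell in WT and 36 rose and 12 fell in KO. Of all 14241 genes, 5632 rose and 2177 fell in WT on that scale, and 4617 rose and 2021 fell in KO. On that scale the median of all genes itself moved by 0.32 in WT and 0.27 in KO, against -0.03 and -0.01 with TMM.

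No member passed the test of whether the RANKL response differed between labels (edgeR, background 0%), and 6 of the 107 had an unadjusted p under 0.05, beside 769 of all genes. DESeq2's Wald test passed no member and 4 of all genes, and limma on log2(FPKM + 0.1) passed 1 member, Celf3, and 4 of all genes. An effect past the threshold in one label alone is therefore not shown to differ between them.

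**Figure D3:**
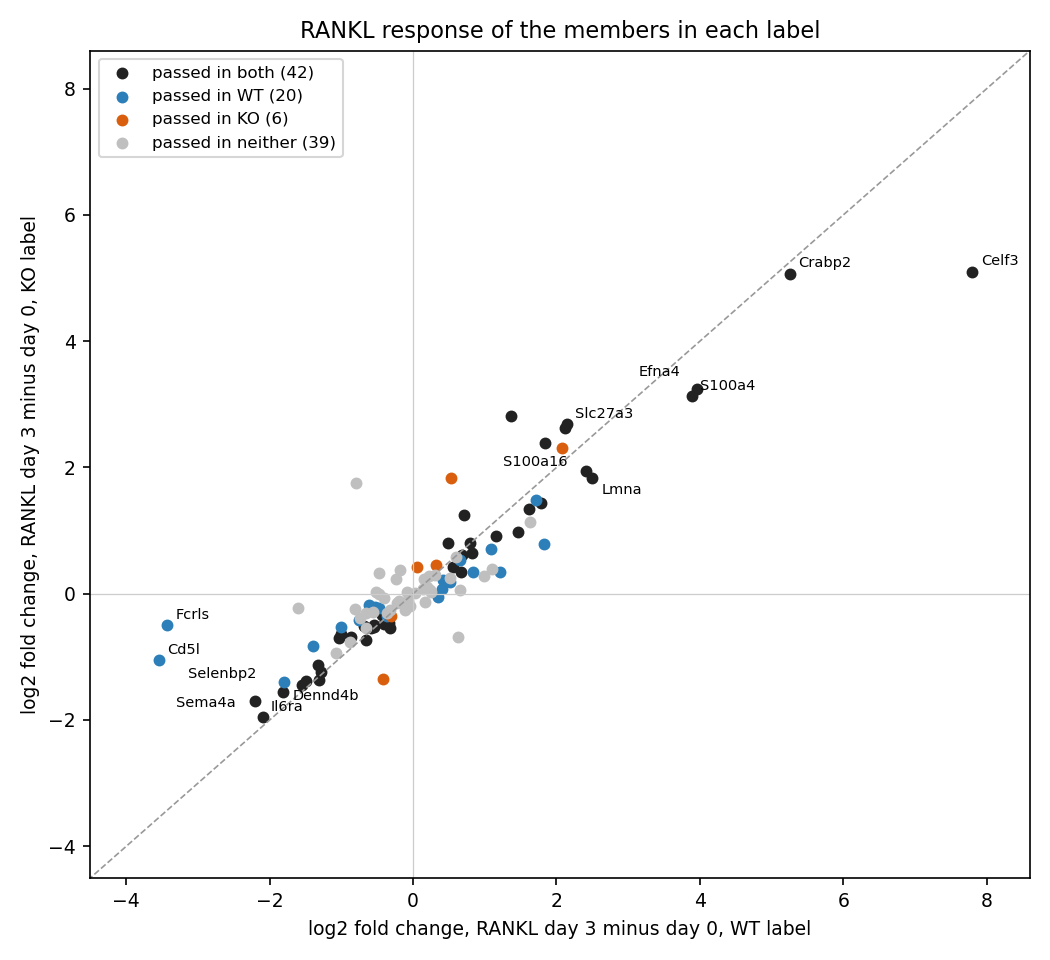
Each point is 1 of the 107 members, with its log2 fold change from day 0 to day 3 of RANKL in WT on the horizontal axis and in KO on the vertical axis, coloured by the label in which it passed, and the dashed line marks equal change. The 42 members that passed in both lie in the same direction in each label, and Cd5l and Fcrls, which passed in WT, lie well above the line.

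Among the S100 genes most members rose. Of the 7 members of this family, 5 rose in WT (S100a4, S100a6, S100a10, S100a11 and S100a16), S100a13 fell and S100a1 did not pass, with a median log2 fold change of 1.61 beside -0.03 over all genes. In KO 4 rose and none fell (median 1.34). Over all genes 23.7% rose and 26.5% fell in WT, and 20.2% rose and 22.3% fell in KO. On the log2(FPKM + 0.1) scale S100a13 no longer passed and 5 rose in each label, where 5632 of 14241 genes rose in WT and 4617 in KO. S100a4, which encodes a calcium-binding protein of motile and invasive cells, went in WT from 42.1, 65.7 and 48.6 CPM on day 0 to 936, 572 and 807 CPM on day 3, a rise of 3.89 ± 0.635 on the log2 scale (adjusted p = 0.000235). In KO it went from 33.7, 51.3 and 55.9 CPM to 515, 483 and 237 CPM (3.13 ± 0.615, adjusted p = 0.00131). Day 3 did not overlap with day 0 in either label, and on day 3 all KO libraries were below all WT libraries. On that day 0 of 8 osteoclast markers were higher in KO, and their part was not tested. On day 1 WT was split, with 237 and 302 CPM in the single-hyphen libraries and 30.5 CPM in the double-hyphen library. In KO the double-hyphen libraries 1 and 2 gave 39.1 and 36.1 CPM and the single-hyphen library 3 gave 76.9 CPM. The title styles are thus unevenly spread over the labels on day 1, and their part was not tested.

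The same split of WT on day 1 was seen for S100a6 (254 and 256 against 48.2 CPM) and S100a10 (152 and 140 against 71.4 CPM), genes of a nearby family member and of the annexin A2 partner p11. In KO the single-hyphen library was also the highest of that day, with 161 against 102 and 116 CPM for S100a6 and 91.9 against 72.3 and 72.0 CPM for S100a10. S100a6 rose in WT by 1.79 ± 0.493 (adjusted p = 0.00795) and S100a10 by 1.61 ± 0.256 (adjusted p = 0.00019). S100a16 rose from 0.165, 1.32 and 7.87 CPM to 15.7, 14.8 and 19.9 CPM in WT (2.41 ± 0.695, adjusted p = 0.0104) and from 9.2, 5.38 and 8.74 CPM to 32.6, 34.1 and 23.7 CPM in KO (1.95 ± 0.668, adjusted p = 0.0296). Its day 0 value was highest in WT library 3, the WT library with 4500 CPM of stromal markers, and the part of those cells was not tested. Left out, the WT library 3 of day 0 took the rise to 4.5. S100a16 did not pass in WT when only the groups compared were fitted (adjusted p = 0.0908), and its call in KO was lost in 5 of 28 alternatives. S100a1, prominent in heart muscle, gave 40.2 to 95.8 CPM over the WT libraries of days 0 and 3 and changed by -0.66 (adjusted p = 0.236).

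**Figure D4:**
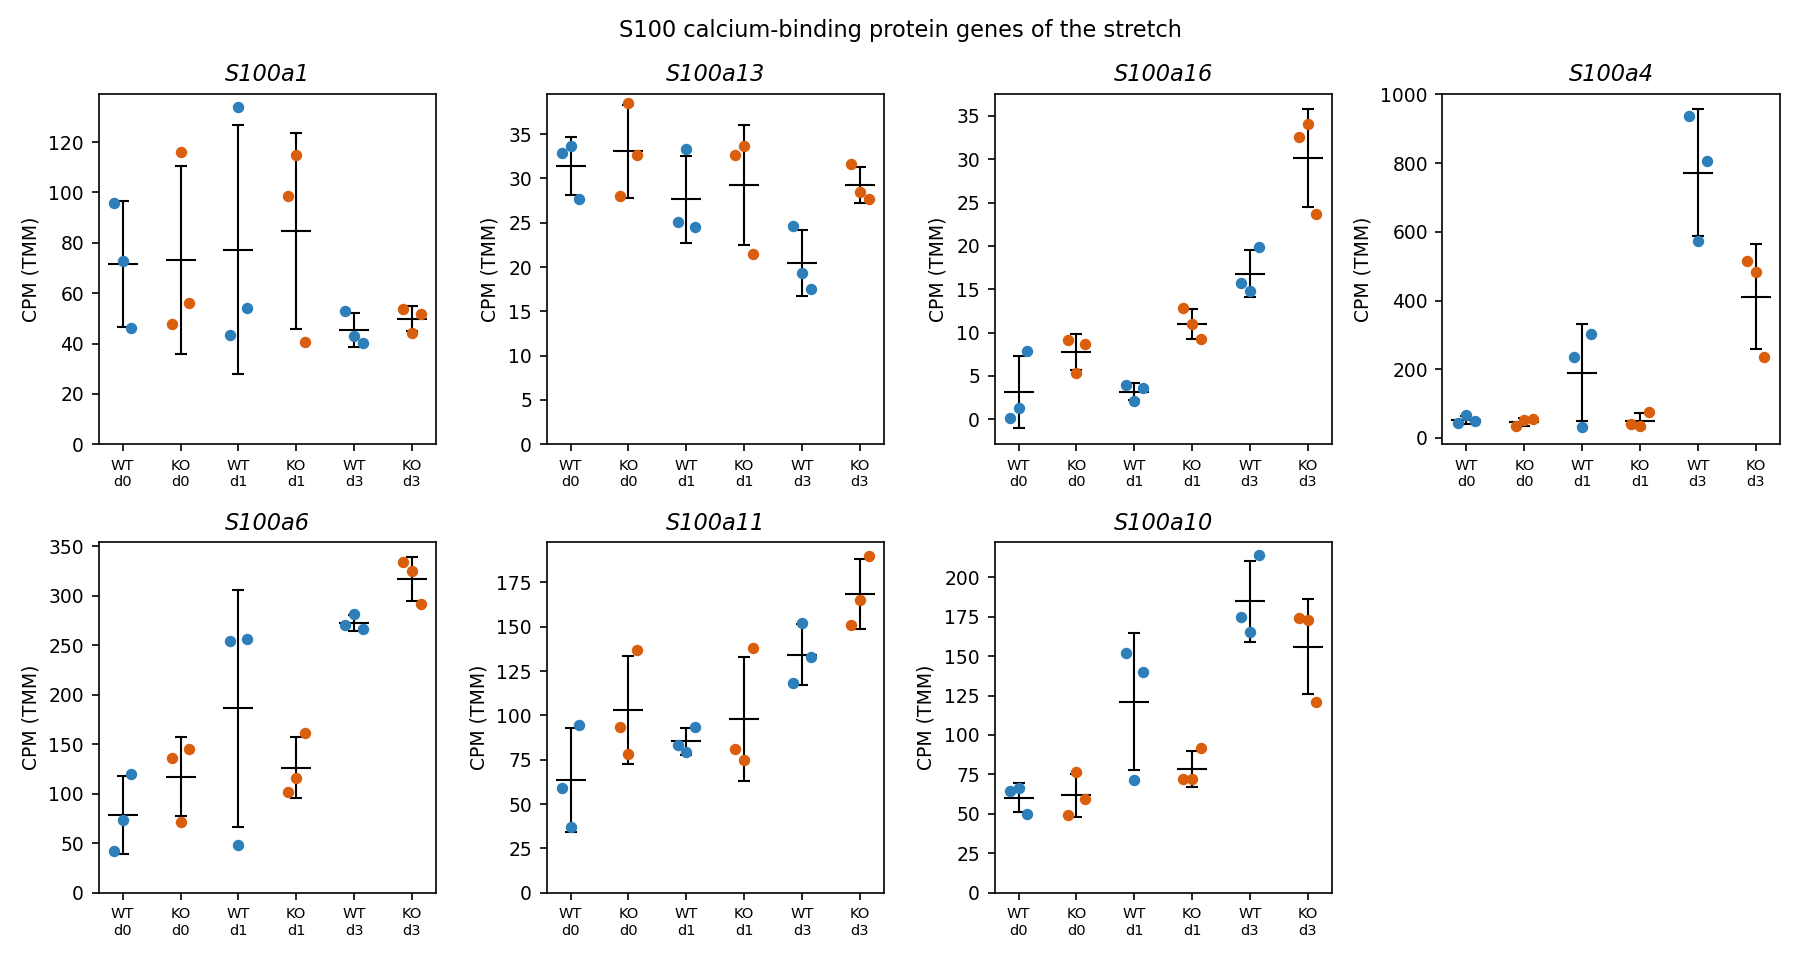
Points are single libraries in CPM on linear axes for the 7 S100 members, WT in blue and KO in orange, with bars at the mean ± SD (n = 3). S100a4, S100a6, S100a10 and S100a16 are highest on day 3 in the group means, and S100a4 reached 936 CPM in a WT library of that day.

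Outside that family Celf3 showed the largest rise in WT, from 1 count over the 3 libraries of day 0 to 409 on day 3, a ratio of 295 (95% exact interval 52.6 to 11662, counting error only, adjusted p = 0.000275). In KO the rise from 0 to 14 counts was at least 1.24-fold against a floor of 3 counts per library. The KO call of Celf3 (adjusted p = 0.0277) was lost in 9 of 28 alternatives. These were leaving out any 1 KO library of day 0 or KO day 3 library 2 or 3, both FPKM scales, a replicate block within each label, and only the groups compared. Crabp2, which binds retinoic acid in the cytoplasm, rose in WT from 0, 0 and 0.358 CPM to 3.87, 5.53 and 5.95 CPM (5.26 ± 0.936, adjusted p = 0.000441) and in KO from 0.0713, 0.461 and 0.0728 CPM to 4.47, 12.4 and 4.02 CPM (5.07 ± 0.891, adjusted p = 0.000613). All counts of Crabp2 in WT on day 0 came from library 3, without which the fitted change was 9.3. Celf3 and Crabp2 met the count minimum only through day 3, so that their adjusted p-values describe a rise that also selected them. Lmna, the gene of lamin A and C of the nuclear lamina, rose from 158, 113 and 164 CPM to 721, 891 and 841 CPM in WT (2.49 ± 0.229, adjusted p = 4.84e-06) and from 176, 188 and 154 CPM to 603, 670 and 585 CPM in KO (1.84 ± 0.223, adjusted p = 5.18e-05). On day 3 all 3 KO libraries of Lmna were below all 3 WT libraries, again beside the lower osteoclast marker sum in KO. Slc27a3, an acyl-CoA synthetase gene of fatty acid metabolism, rose from 0.907, 2.63 and 2.86 CPM to 8.77, 9.41 and 10.2 CPM in WT (2.14 ± 0.573, adjusted p = 0.00686), and in KO by 2.69 ± 0.575 (adjusted p = 0.00229).

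Most members of the list of immune receptors and signalling fell in WT, a list that also held the genes Adar, Shc1, Zbtb7b, Npr1, Pear1, Rit1 and Arhgef2. Of the 14 members on it 9 fell and 1 rose in WT (background 26.5% and 23.7%), with a median log2 fold change of -1.16 beside -0.03 over all genes. In KO 7 fell and 1 rose (background 22.3% and 20.2%), with a median of -0.8 beside -0.01. Il6ra, the receptor subunit for interleukin 6, fell in WT from 387, 562 and 364 CPM to 109, 112 and 85.3 CPM (-2.1 ± 0.211, adjusted p = 8.24e-06) and in KO from 359, 278 and 323 CPM to 90.8, 62.5 and 94.5 CPM (-1.95 ± 0.21, adjusted p = 2.59e-05). Day 0 and day 3 did not overlap in either label, and the difference between the falls was 0.15 on the log2 scale (adjusted p = 0.981). Sema4a, a semaphorin that acts on T cells, fell in WT from 142, 154 and 80.1 CPM to 31.1, 33.2 and 17.2 CPM (-2.2 ± 0.309, adjusted p = 7.59e-05) and in KO by -1.7 ± 0.304 (adjusted p = 0.000692).

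Cd5l and Fcrls fell in WT by -3.55 ± 0.922 (adjusted p = 0.00572) and -3.43 ± 0.711 (adjusted p = 0.0013). For Fcrls the WT levels were 121, 697 and 253 CPM on day 0, and WT library 2 was far above the others. In KO neither passed: the Cd5l change was -1.05 ± 0.833 (adjusted p = 0.324) and that of Fcrls -0.5 ± 0.647 (adjusted p = 0.552), with day 0 at 280, 100 and 223 CPM and day 3 at 125, 88.0 and 213 CPM. The difference between labels in these responses was 2.5 for Cd5l and 2.93 for Fcrls on the log2 scale and did not pass (adjusted p = 0.91 for each). Fcrl1 fell in KO (-1.35 ± 0.355, adjusted p = 0.00777), its change in WT did not pass (-0.42 ± 0.355, adjusted p = 0.328), and neither did the difference of -0.93 between them (adjusted p = 0.921). Cd1d1 fell in WT (-1.4 ± 0.337, adjusted p = 0.00364), and Arhgef2, which encodes the microtubule-bound exchange factor GEF-H1, fell by -0.58 ± 0.119 (adjusted p = 0.00126) in WT and by -0.54 ± 0.119 (adjusted p = 0.00282) in KO.

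**Figure D5:**
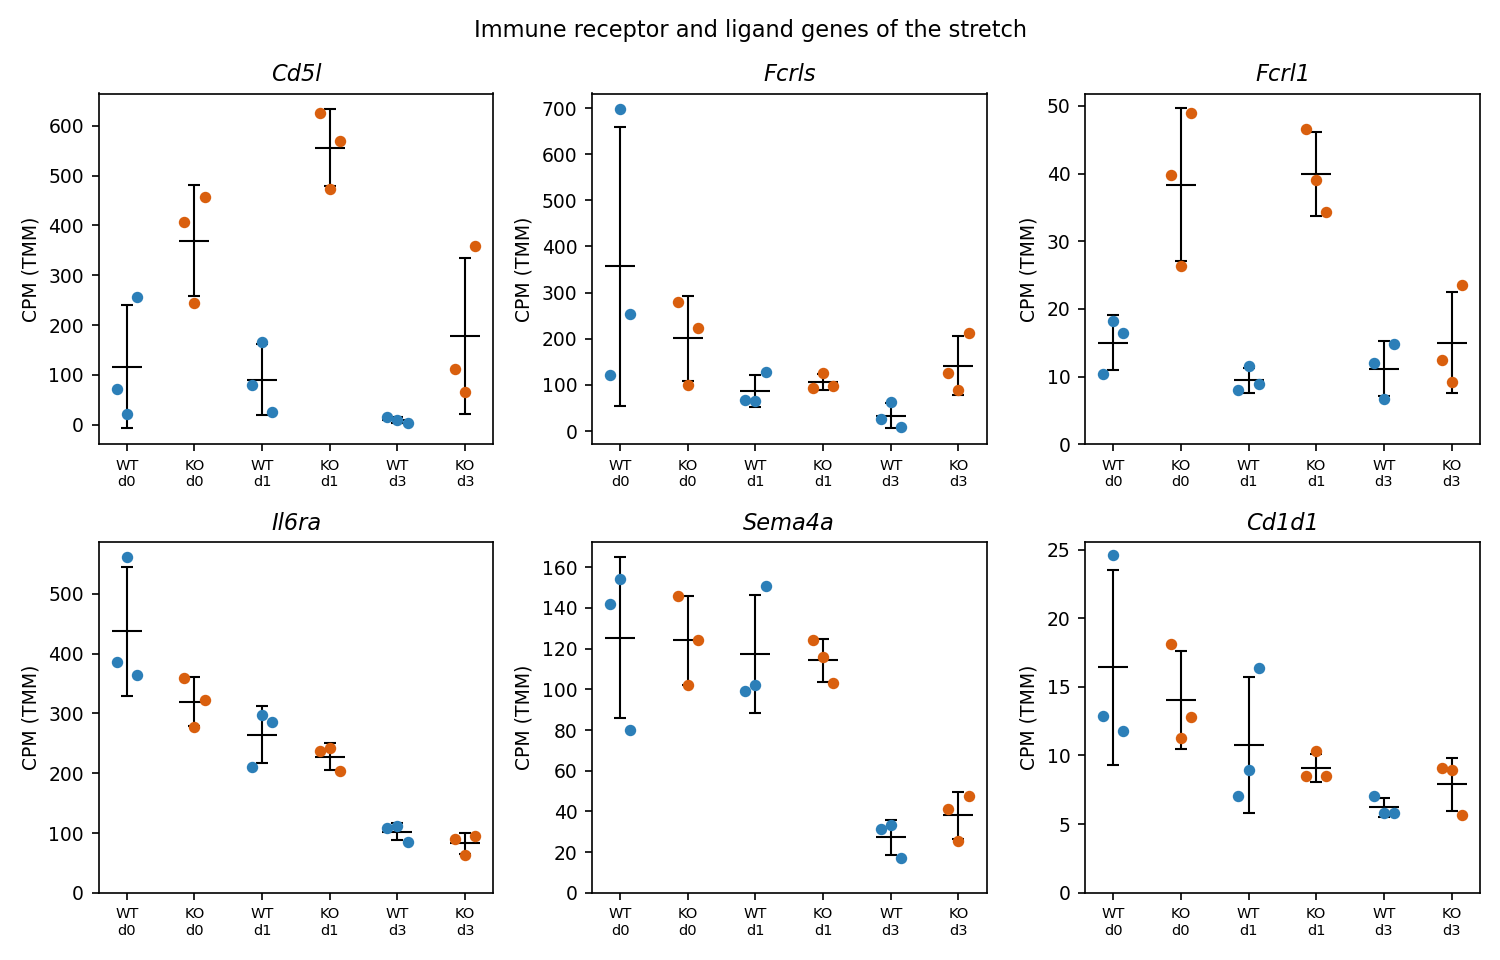
Points are single libraries in CPM on linear axes for 6 immune members of the stretch, WT in blue and KO in orange, with bars at the mean ± SD (n = 3). Il6ra and Sema4a drop on day 3 in both labels, Cd5l is highest in KO on day 1, and 1 WT library of day 0 stands far above the rest for Fcrls at 697 CPM.

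Of the 8 bone, matrix and cell-surface members, a list that also held Crabp2 and Nes, 5 rose and none fell in KO (background 20.2% and 22.3%). In WT 3 rose and 1 fell (background 23.7% and 26.5%), and 5 and 0 on the log2(FPKM + 0.1) scale, where 5632 of 14241 genes rose and 2177 fell. Their medians were 2.07 in KO and 1.85 in WT, beside -0.01 and -0.03 over all genes. Kirrel, an immunoglobulin-family adhesion gene, went from 1.24, 11.4 and 50.3 CPM to 82.2, 96.0 and 86.4 CPM in WT (2.07 ± 0.876, adjusted p = 0.0619) and from 41.7, 11.3 and 30.4 CPM to 143, 136 and 135 CPM in KO (2.31 ± 0.88, adjusted p = 0.0464). The KO call of Kirrel was lost in 13 of 28 alternatives, among them those leaving out any single KO library of day 0 or 3, any WT library of day 3, KO day 1 library 1 or 2, or WT day 1 library 2. In WT it passed in 9 of 28. Its WT day 0 libraries took the same order as their stromal marker sums of 89.5, 503 and 4500 CPM, as did those of Thbs3, a cartilage and bone thrombospondin gene (0.412, 2.09 and 5.01 CPM), and of Nes, the gene of the intermediate filament nestin (4.53, 9.83 and 50.7 CPM). The part of stromal cells was not tested. Thbs3 rose in both labels (2.12 ± 0.69, adjusted p = 0.0198 in WT, and 2.63 ± 0.698, adjusted p = 0.00816 in KO), and Nes passed in neither. Adam15, a membrane metalloprotease gene, fell in WT by -0.75 ± 0.159 (adjusted p = 0.00157). The ephrin genes Efna1 and Efna4, ligands of Eph receptors with a place in talk between osteoclasts and osteoblasts, were low. Efna4 rose from 0, 0.155 and 0.286 CPM to 1.96, 2.76 and 2.69 CPM in WT (3.96 ± 0.657, adjusted p = 0.000267), and Efna1 passed in KO (1.83 ± 0.597, adjusted p = 0.0242). Efna4, like Crabp2, met the count minimum only through day 3.

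The housekeeping groups were mixed, and their counts are to be read against the 50.2% of all genes that passed in WT, 23.7% higher and 26.5% lower. Counts on the log2(FPKM + 0.1) scale are to be read against 5632 of 14241 genes that rose and 2177 that fell in WT on that scale. Mitochondrial and metabolic members rose in 8 of 14 cases and fell in 2 in WT (11 and 1 on the log2(FPKM + 0.1) scale), among them Slc39a1, a zinc transporter gene and the most abundant of them, by 0.63 (adjusted p = 0.00377) and Mrpl24, for a mitochondrial ribosomal protein, by -0.32 (adjusted p = 0.0463), a call lost in 25 of 28 alternatives. Apoa1bp, an NAD(P)HX epimerase gene, did not pass (-0.04, adjusted p = 0.792). Of 15 RNA processing and translation members 6 rose and 4 fell in WT, but 10 rose and 1 fell on the log2(FPKM + 0.1) scale. Ssr2, of the translocon-associated complex, rose by 0.79 (adjusted p = 0.000421), whereas Adar, the gene of an interferon-inducible RNA editing enzyme, fell by -1.5 (adjusted p = 4.03e-05) and Ubap2l, a stress granule gene, by -0.43 (adjusted p = 0.00691). Membrane traffic and lysosome members fell in 6 of 12 cases and rose in 1 in WT, among them Snx27, a retromer-linked sorting nexin, by -1.55 (adjusted p = 0.000222) and Arhgef11 by -0.53 (adjusted p = 0.00244). On the log2(FPKM + 0.1) scale that group had 4 rises and 2 falls in WT, so its direction rests on the scaling. Transcription and chromatin members passed in 7 of 15 cases, a share near that of all genes, 4 higher (Lmna above, and Hdgf, a growth factor of the nucleus, by 0.67, adjusted p = 0.000642) and 3 lower (Zbtb7b by -1.03, adjusted p = 0.000368). Of 6 cell cycle members 1 rose and 2 fell in WT. Ube2q1, a ubiquitin-conjugating enzyme gene, fell by -0.33 (adjusted p = 0.0411, a call lost in 19 of 28 alternatives), while Jtb (-0.11, adjusted p = 0.536) and Iqgap3, a scaffold of dividing cells (1.1, adjusted p = 0.114), did not pass. Dennd4b, in none of these groups, encodes a Rab exchange factor and fell from 116, 127 and 86.2 CPM to 34.4, 31.8 and 26.8 CPM in WT (-1.82 ± 0.236, adjusted p = 4.37e-05).

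Of the 7 members whose labels were apart on all days, 3 passed for RANKL in WT. Besides 5830417I10Rik and Cgn, Syt11 and Gm15417 passed in neither label (adjusted p = 0.109 and 0.0879 in WT). Pmvk rose in both, by 0.48 ± 0.149 in WT (adjusted p = 0.016) and 0.8 ± 0.149 in KO (adjusted p = 0.000958), its WT call being lost without WT day 3 library 1 or 3. Slc50a1 fell in WT (-0.47 ± 0.137, adjusted p = 0.0109), a call lost without WT day 3 library 3 and on the FPKM scales. Selenbp2 also fell in WT (-1.8 ± 0.597, adjusted p = 0.0216), a call lost without WT day 0 library 2, which alone held 27.4 CPM and without which the change was -0.98, without WT day 3 library 1 or 3, and on the log2(FPKM + 0.1) scale.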

How the data were processed

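The deposited table gives, for each gene, read counts and FPKM in 18 bulk RNA-seq libraries (SMARTer mRNA kit). The authors estimated FPKM, fragments scaled to gene length and library size, with StringTie and Ballgown, and the counts are deposited beside them as whole numbers. The submitters' notes name StringTie, GRCm38.p4 and mm10. The aligner and the counter are not given in the sources used here. Groups came from the titles, in which WT day 1 has 2 libraries numbered 1 and none numbered 3.

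Counts were tested with edgeR 4.0.16 (R 4.3.3): filterByExpr, TMM, 1 quasi-likelihood fit of all 6 groups, contrasts between labels for each day and their mean, RANKL day 3 against day 0 in each label, and their interaction, with Benjamini-Hochberg adjustment over 14241 genes at 0.05. An SE was taken as the log2 fold change over the square root of F. Totals of 13789775 to 17559958 counts set the precision, and exact intervals and floors cover counting error only. In simulated counts for the WT RANKL comparison (13948 genes, 200 changed), 41% of 2-fold and 80% of 4-fold changes were recovered. Alternatives were no filter, DESeq2 1.42.0 size factors or its Wald test, limma 3.58.1 on log2(FPKM + 0.1) and log2(FPKM + 1), only the groups compared, title style, replicate blocks and leaving out each library. Deviations from the group means of same-numbered libraries had correlations of -0.393, 0.168 and 0.321 between the 2 labels on day 0. They were 0.13, 0.135 and 0.398 between KO days 0 and 3, and 0.111, -0.023 and 0.0514 between WT days 0 and 3. The labels do not state a pairing, and none is read from these values.

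Members, lists and tests were chosen with earlier results of these data known. Genes named were the members whose libraries did not overlap in 1 direction on all days (at most 8 a direction by mean label difference), the 6 largest passing RANKL changes a direction in WT with no overlap and at least 5 CPM in the higher group, any passing the interaction, the 3 members of highest mean CPM in each list, and the genes at the bounds. 1 gene under this rule is not reported here. Fcrl1, Efna1, Efna4, Thbs3, Gon4l, Mrpl9, Dpm3, Flad1, Pygo2, Pbxip1, Shc1, Gm9774, Tchh and the S100 members outside that rule were named after their values were seen. Biotypes and strands came from GENCODE vM21 and promoters from RefSeq GRCm38.p6.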

Additional observations from a re-analysis of the deposited data

Results flagged for a closer look

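The gene Dpm3, which encodes a subunit that anchors dolichol-phosphate mannose synthase, was listed because its libraries moved in opposite directions between the labels on different days. On day 1 it measured 18.1, 17.8 and 16.4 CPM in KO and 23.5, 19.5 and 25.6 CPM in WT, so that every KO library was below every WT library (log2 fold change -0.39). On day 3 the order was turned, with 23.2, 19.0 and 19.4 CPM in KO and 18.8, 17.7 and 17.3 CPM in WT (log2 fold change 0.19), the nearest libraries being 19.0 and 18.8 CPM. The difference between these days was not tested.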

How the results depend on the processing

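The RANKL counts stayed within 1.5 times of 62 members in WT and 48 in KO under every alternative run. When single libraries were left out they were 45 to 63 in WT (background 39.4% to 52.8%) and 35 to 50 in KO (background 30.6% to 45.5%). With the replicate number as a replicate block they were 65 and 48, and with a replicate block within each label, a choice made after seeing the data, 62 and 50. Label counts were less stable. On day 0 the 2 members became 1 with only the groups compared (background 0.0461%) and 2 to 4 with a library left out (background 0.103% to 1.35%). On day 1 the 3 became 8 with DESeq2's Wald test (background 0.534%) and 1 with only the groups compared (background 0.0231%). They became 1 with single-hyphen titles only (background 0.0733%) and 2 to 7 with a library left out (background 0.0892% to 0.899%). On day 3 the 2 became 8 with the Wald test (background 1.65%) and 6 with only the groups compared (background 1.17%). They became 4 with limma on log2(FPKM + 1) (background 0.786%) and 1 to 3 with a library left out (background 0.0619% to 0.172%). For the mean of the days the 8 became 18 with the Wald test (background 6.89%) and 23 with title style as a covariate (background 9.68%). They became 13 with limma on log2(FPKM + 1) (background 1.79%) and 7 to 21 with a library left out (background 0.454% to 10.5%). The interaction count of 0 became 1 with limma on log2(FPKM + 0.1) and 1 on log2(FPKM + 1), the gene being Celf3 in each, and the cause of these moves was not tested. The mean label differences and WT responses to RANKL by which genes were named kept their direction in every alternative run. Smaller values did not: without single libraries or under other settings the Il6ra interaction of 0.15 reached -0.08, the Fcrls label difference on day 0 went from -0.83 to 0.11 and that of Crabp2 on day 3 from 0.44 to -0.27, and that of Sema4a on day 0 changed sign in 7 of 27. Among genes named, WT calls were lost in 25 of 28 alternatives for Mrpl24, 19 for Ube2q1, 6 for S100a13, 4 each for Selenbp2 and Thbs3, 3 for Slc50a1, 2 each for Pmvk, Adam15, Arhgef2, Arhgef11 and Ubap2l, and 1 for S100a16. KO calls printed were lost in 13 for Kirrel, 9 for Celf3, 5 for S100a16, 4 for Efna1 and 2 for Arhgef2. Levels under 1 CPM rest on few counts, which limits Celf3, Crabp2, Efna4 and Cgn in KO.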
